A study of Homo sapiens with 12 samples.

Results

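The genes described here are 9 members of the S100 family (S100A6, S100A4, S100A9, S100A10, S100A11, S100A13, S100A14, S100A16 and S100P) and ANXA2, which encodes annexin A2, the partner of S100A10. They are 10 of the 60666 genes listed for Huh7 cells and were picked by symbol around S100A6, one of the genes whose level differed most between control and FAM111B knockdown cells. This same difference chose the members, so their own values are given as a description, and where they are counted among called genes nothing is read from it. RNA was sequenced from Huh7, an established human hepatocellular carcinoma (HCC) line, in 3 control libraries and 3 libraries of cells with FAM111B knockdown, named shFAM111B after the short hairpin RNA that targets FAM111B. Per the study's methods the hairpin and the control sequence were carried into the cells by lentivirus, and infected cells were selected with puromycin. No drug or other treatment differs between the groups in the labels. Nothing in the labels says that the 3 libraries of a group came from separate cultures, so p-values measure the spread between these libraries, which may be technical. The Hep3B libraries of the series were not analysed here.

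S100 proteins are small calcium sensors that carry a pair of EF-hand motifs and act mostly as dimers. When calcium binds, most of them expose a surface that grips target proteins such as annexins, myosins and cytoskeletal linkers, and some are also released from cells and signal through receptors such as RAGE (gene AGER). Most of their genes lie in a cluster on the long arm of chromosome 1, and several of them are studied in liver cancer for their association with invasion.

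Levels are given as TPM, a transcript abundance per unit of length on a relative scale, which summed to 978634 to 997094 over the genes listed in each library, so that levels can be compared between genes within a library. Between libraries they depend on what else the library holds. The depth behind each value is unknown, because TPM hold no read counts. Means are given with the SD over 3 libraries (n = 3). Differences are given as log2 fold changes of shFAM111B over control cells on the log2(TPM + 1) scale, on which the change of scarce genes looks smaller than it is. The knocked-down gene FAM111B had 7.84, 8.29 and 7.99 TPM in the control libraries and 0.96, 1.13 and 0.84 TPM in the shFAM111B libraries, in the direction the labels give (log2 fold change -2.20, adjusted p = 6.09e-06, limma).

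Liver markers were checked before the S100 genes. All 11 genes of the liver list were present, led by AFP, the fetal serum protein of HCC, at 7411, 7366 and 7045 TPM in control and 22294, 21853 and 25038 TPM in shFAM111B libraries. The summed level of that list was 28454, 28705 and 28128 TPM in control libraries and 42961, 41694 and 46662 TPM in shFAM111B libraries. The list was split, with 3 genes called higher (AFP, APOA1 and TTR) and 2 lower, where 6.77% and 23.7% of all tested genes were, and with 7 of the 11 below all controls in every shFAM111B library, as 52.8% of all tested genes were. The call of the transport protein gene TTR (log2 fold change 1.04) was lost after quantile normalization (0.55), over protein-coding genes off the mitochondrial chromosome (0.91), with the trend of length and expression removed (0.70) and without shFAM111B replicate 3 (0.99), and that of the apolipoprotein gene APOA1 (1.11) over protein-coding genes off the mitochondrial chromosome (0.98). ALB (albumin) was at 6444 ± 41.1 and 4161 ± 185 TPM and was not called (log2 fold change -0.63). HNF4A, a transcription factor of liver cells, fell from 98.1 ± 2.11 to 40.7 ± 2.25 TPM (log2 fold change -1.25, adjusted p = 4.19e-06, limma), a call lost after median-of-ratios (-0.80) and upper-quartile (-0.84) scaling and with the trend of length and expression removed (-0.59). APOB, an apolipoprotein gene, fell from 236.5 ± 7.81 to 48.2 ± 3.01 TPM (log2 fold change -2.27, adjusted p = 1.58e-06, limma). S100 genes are also abundant in myeloid, squamous and mesenchymal cells, whose markers were therefore listed too. Of the myeloid markers, ELANE, FCGR3A and S100A12 were listed at 0 in all 6 libraries. The leucocyte gene PTPRC had 0.13, 0.04 and 2.39 TPM in control libraries and at most 0.02 TPM in shFAM111B libraries. LYZ, which encodes lysozyme, was the most abundant gene of that list, at 262.2 ± 3.47 and 304.2 ± 16.4 TPM. Also present were CD68, at 16.26 ± 1.3 and 22.55 ± 0.755 TPM, and CD14, at 3.73 ± 0.35 and 2.53 ± 0.884 TPM. The myeloid list summed to 280.5, 288.1 and 282.4 TPM in control and 333.6, 312 and 343 TPM in shFAM111B libraries, with 3 of its 11 genes tested and 0 called, too few to set against the 6.77% and 23.7% of all tested genes called higher and lower. None of the 7 squamous markers reached the level for testing, and their sum stayed at or below 1.99 TPM in every library. In the mesenchymal list THY1 was listed at 0 in all libraries, VIM (vimentin) was the most abundant gene at 711.8 ± 37.5 and 474.6 ± 25.3 TPM, and LUM, a matrix gene that passed the filter through the shFAM111B libraries, was at 0.883 ± 0.238 and 2.79 ± 0.52 TPM. That list's sum, most of it VIM, went from 707.3, 696.3 and 764.2 TPM to 493.1, 519.9 and 463.8 TPM. Of its 4 tested genes LUM was called higher (log2 fold change 1.01), a call lost without control replicate 3 (0.93) or shFAM111B replicate 2 (0.91). Of all tested genes 6.77% were called higher and 23.7% lower, and 0 of this list were called lower. The median log2 fold change was 0.54, with VIM at -0.58, the collagen gene COL1A2 at 0.53 (6.68 ± 1.30 and 10.1 ± 1.93 TPM, not called) and the growth factor receptor gene PDGFRB at 0.54 (1.95 ± 0.404 and 3.38 ± 1.16 TPM, not called).

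Biliary markers moved in both directions. Of the 5 tested, KRT19, a keratin of bile duct cells, rose from 31.0 ± 3.11 to 166.2 ± 18.9 TPM (log2 fold change 2.38, adjusted p = 3.91e-06, limma). The chloride channel gene CFTR was at 1.22 ± 0.285 and 4.31 ± 1.09 TPM (log2 fold change 1.24). It passed the filter mainly through the shFAM111B libraries, so no test is given for it. The duct transcription factor gene SOX9 fell from 58.5 ± 0.568 to 22.1 ± 0.519 TPM (log2 fold change -1.37, adjusted p = 2.92e-06, limma). That call was lost after median-of-ratios (-0.93) and upper-quartile (-0.97) scaling and with the trend of length and expression removed (-0.80). KRT7, another bile duct keratin, was at 0.38 TPM in 1 control library and at 0 in the other libraries. The list summed to 141.2, 136.1 and 140.1 TPM in control and 256, 227.3 and 260.3 TPM in shFAM111B libraries. Whether these markers have a part in the S100 differences was not tested. In bulk libraries of this kind, more cells of a type and more RNA per cell cannot be told apart.

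The shFAM111B libraries also differed among themselves. Ribosomal RNA genes took 35926, 53091 and 2567 TPM in shFAM111B replicates 1, 2 and 3, against 2850, 2489 and 1056 TPM in the controls. Genes of the mitochondrial chromosome took 76826, 78883 and 73237 TPM in the same shFAM111B libraries, against 201302, 201464 and 196140 TPM. Replicate 3 thus had little ribosomal RNA and replicate 2 the most, and all 3 had less mitochondrial RNA than the controls. TPM are relative, and the median tested gene had a log2 fold change of -0.36, beside which the differences below are to be read.

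The promoter sequences of the genes that the results turn on are shown first. They are the 250 bases before the start site given by RefSeq (GRCh38.p14), read 5′ to 3′ on the strand of the gene, which is the minus strand for all of them. They belong to S100A6, around which the genes were picked (chr1:153535992-153536241), its neighbour S100A4 (chr1:153545807-153546056), S100A10, the most abundant member (chr1:151993860-151994109), and ANXA2, whose groups overlapped (chr15:60397987-60398236). Capitals mark matches on either strand to the TATA box (TATAAA), the GC box (GGGCGG), the AP-1 site (TGANTCA), the core of the antioxidant response element (TGACNNNGC) and the TEAD site (CATTCC).
S100A6: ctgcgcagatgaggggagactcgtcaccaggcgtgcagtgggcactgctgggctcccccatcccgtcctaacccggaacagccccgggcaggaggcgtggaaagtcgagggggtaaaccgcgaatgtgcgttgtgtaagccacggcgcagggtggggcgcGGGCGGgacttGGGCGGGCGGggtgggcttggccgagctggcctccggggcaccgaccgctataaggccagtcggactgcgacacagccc
S100A4: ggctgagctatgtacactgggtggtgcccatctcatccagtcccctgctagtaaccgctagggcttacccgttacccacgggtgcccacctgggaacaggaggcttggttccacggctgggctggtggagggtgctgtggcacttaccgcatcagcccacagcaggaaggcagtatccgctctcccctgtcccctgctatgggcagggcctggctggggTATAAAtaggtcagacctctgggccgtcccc
S100A10: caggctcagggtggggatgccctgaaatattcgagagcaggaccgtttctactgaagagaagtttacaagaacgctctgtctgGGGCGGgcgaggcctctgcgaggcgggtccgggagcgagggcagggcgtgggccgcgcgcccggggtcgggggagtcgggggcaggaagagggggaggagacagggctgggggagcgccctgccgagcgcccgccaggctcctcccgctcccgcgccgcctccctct
ANXA2: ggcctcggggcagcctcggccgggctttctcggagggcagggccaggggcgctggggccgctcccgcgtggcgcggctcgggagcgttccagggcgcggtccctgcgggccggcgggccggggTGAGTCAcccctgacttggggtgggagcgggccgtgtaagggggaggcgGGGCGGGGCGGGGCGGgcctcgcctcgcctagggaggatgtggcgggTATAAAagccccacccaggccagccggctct

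The promoters were not alike. S100A6 held 3 GC boxes, at -90, -79 and -75 from the start site, of which the last pair overlaps, and none of the other motifs. S100A4 held a TATA box at -31 and no GC box. S100A10 held a GC box at -167. ANXA2 held an AP-1 site at -127, GC boxes at -78, -73 and -68, each overlapping the next, and a TATA box at -31. The GC box occurred in 42.6% of 35116 RefSeq promoters of the same length, the TATA box in 10.7%, the AP-1 site in 6.57%, the antioxidant response core in 10.9% and the TEAD site in 11.9%. The S100A6 promoter was 70% G and C with 24 CpG, that of S100A10 71.2% with 24 CpG, that of ANXA2 78% with 28 CpG and that of S100A4 62.8% with 7 CpG, against a median of 58% and 11 CpG over all promoters. All 10 genes matched RefSeq, with 13 promoters in all. Elsewhere among them, S100P, S100A9 and 1 of the 3 S100A13 promoters held a TATA box, and GC boxes were found in S100A9, S100A11, 1 promoter of S100A13 and 1 of S100A16. S100A14 held the antioxidant response core at -228 and -161 and S100A13 at -245, and S100A16 held a TEAD site at -247. These matches describe the letters in these windows only.

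S100A6, also named calcyclin, is a dimeric S100 protein found at high levels in proliferating cells and fibroblasts. Its gene (ENSG00000197956, chr1:153534599-153536244, minus strand) was at 21.6, 27.8 and 26.4 TPM in control libraries and 292.8, 286.1 and 346.8 TPM in shFAM111B libraries. Every shFAM111B library lay above every control library, with means of 25.3 ± 3.25 and 308.6 ± 33.3 TPM, a 12.2-fold difference. The log2 fold change was 3.56 (standard error 0.113), the 45th highest of the 14394 tested genes. Leaving out any library kept it between 3.46 and 3.63.

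S100A4, which binds non-muscle myosin and is known from metastasis, starts 13.9 kb from the S100A6 start by the GENCODE gene limits. Its gene (ENSG00000196154, chr1:153543613-153550136, minus strand) was at 0.66, 2.17 and 0.84 TPM in control and 9.17, 8.89 and 15.8 TPM in shFAM111B libraries. It was near the limit of the low-value filter in control cells and well above it in knockdown cells, at 1.22 ± 0.825 and 11.3 ± 3.89 TPM (9.22-fold, log2 fold change 2.48). Its SD was 34.5% of the mean in shFAM111B cells, the second largest of the 10 genes after S100A9.

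S100A13 takes part in the release of FGF1 and interleukin-1 alpha, a growth factor and a cytokine that leave the cell without a signal peptide. The gene (ENSG00000189171, chr1:153618787-153631360, minus strand) was at 33, 33.6 and 31.9 TPM in control and 177.4, 165.1 and 226.6 TPM in shFAM111B libraries. The groups were far apart, at 32.8 ± 0.838 and 189.7 ± 32.5 TPM (5.78-fold, log2 fold change 2.48). With a longest transcript of 2184 nt it is the longest of the S100 members.

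S100A14, an epithelial S100 protein, was nearly absent from control cells. The gene (ENSG00000189334, chr1:153614255-153616986, minus strand) was listed at 0, 0.1 and 0.18 TPM in control and 1.98, 2.31 and 2.89 TPM in shFAM111B libraries, a log2 fold change of 1.63. It passed the filter through the shFAM111B libraries alone, so the difference was needed for it to be tested at all.

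S100A10, also named p11, is the S100 protein that does not respond to calcium and holds annexin A2 in a tetramer at the cell surface. It was the most abundant S100 gene in both groups (ENSG00000197747, chr1:151982915-151994390, minus strand), at 755.2, 784.9 and 801.5 TPM in control and 2085, 2056 and 2236 TPM in shFAM111B libraries. The means of 780.5 ± 23.5 and 2126 ± 96.9 TPM differed 2.72-fold (log2 fold change 1.44), with all shFAM111B libraries above all controls.

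Smaller differences were found for S100A16, S100A11 and S100P. S100A16, a widely expressed S100 protein, was at 10.3, 11.7 and 7.95 TPM in control and 16.9, 18.4 and 17.6 TPM in shFAM111B libraries (ENSG00000188643, chr1:153606886-153613145, 1.77-fold, log2 fold change 0.78). S100A11, which binds annexin A1, was at 280.4, 280.8 and 268.8 TPM and at 465.5, 483.9 and 460.9 TPM (ENSG00000163191, chr1:152032506-152047907, 1.70-fold, log2 fold change 0.76). S100P, which activates the membrane linker ezrin and lies on chromosome 4, was at 150.4, 144.1 and 133.8 TPM and at 233.9, 216.7 and 271.1 TPM (ENSG00000163993, chr4:6693069-6697170, 1.68-fold, log2 fold change 0.74). In all 3 genes the shFAM111B libraries stood above the controls without overlap, and none reached a 2-fold difference.

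The groups overlapped for S100A9 and ANXA2. S100A9, which forms calprotectin with S100A8 in myeloid cells, was at 1.39, 2.96 and 2.93 TPM in control and 2.35, 0.54 and 2.49 TPM in shFAM111B libraries (ENSG00000163220, chr1:153357854-153361027, log2 fold change -0.35, standard error 0.364). Without shFAM111B replicate 2 its log2 fold change was 0.03. ANXA2, a calcium-dependent membrane-binding protein, was at 956.2, 968.4 and 1013 TPM and at 952.8, 972 and 937.6 TPM (ENSG00000182718, chr15:60347134-60402883). Its log2 fold change of -0.04 became 0.42 with median-of-ratios, 0.38 with upper-quartile and -0.44 with quantile scaling. No direction is therefore given for either gene.

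**Figure D1:**
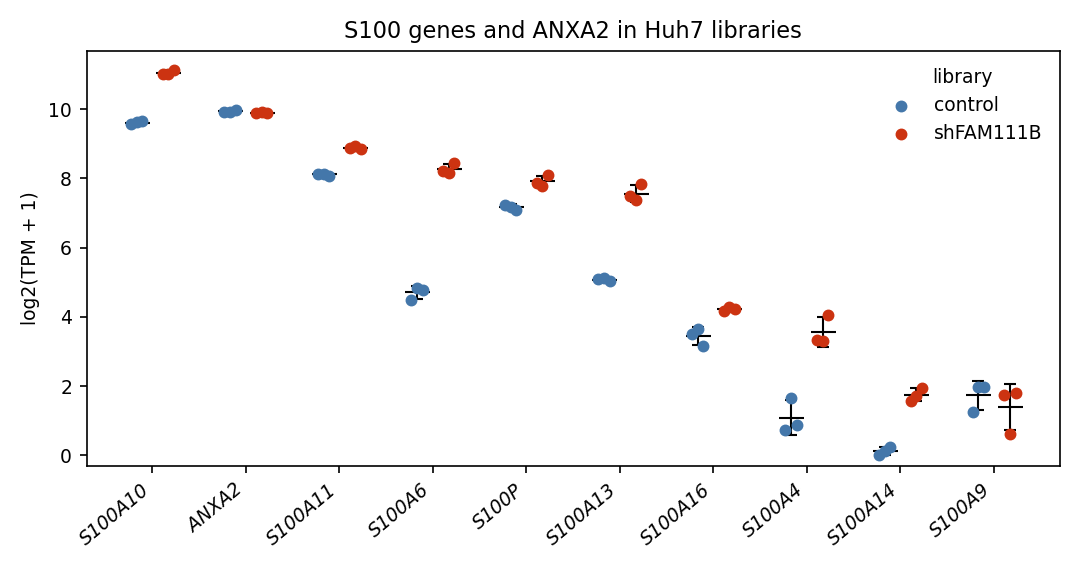
Level of each S100 gene and ANXA2 as log2(TPM + 1) in 3 control and 3 shFAM111B Huh7 libraries. Points are libraries and black marks are the mean and SD. Control and shFAM111B points are apart for 8 genes, most widely for S100A6, and overlap for ANXA2 and S100A9.

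Called genes are those with a fold change of at least 2 and an adjusted p under 0.05 from limma over all tested genes. Of the 10 genes, 5 were called higher (S100A6, S100A4, S100A13, S100A14 and S100A10) and 0 lower, where 6.77% of all tested genes were called higher and 23.7% lower. All shFAM111B libraries lay above all control libraries in 8 of the 10, against 22.5% of all tested genes, and below all of them in 0, against 52.8%. The members were picked with this contrast known, so nothing is read from these counts. After median-of-ratios and after upper-quartile scaling 8 were called higher, with S100A11, S100A16 and S100P added, and with 1 TPM asked of every library 3 were, without S100A4 and S100A14, which then left the test. At the edge of the call, S100A10 at 1.44 was the lowest inside it and S100A16 at 0.78 the highest outside it. The log2 fold changes of S100A6, S100A4, S100A10, S100A13, S100A14, S100A16 and S100P stayed positive under all the scalings tried and with the length trend removed, whereas that of S100A11 was -0.21 once the length trend was removed.

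Replicate 3 was the highest shFAM111B library for S100A6, S100A4, S100A9, S100A10, S100A13, S100A14 and S100P. Its level was 1.75 times the mean of replicates 1 and 2 for S100A4, 1.35 times for S100A14, 1.32 times for S100A13 and 1.2 times for S100A6. S100A11, S100A16 and ANXA2 were highest in replicate 2 instead. Replicate 3 was also the shFAM111B library with the least ribosomal RNA (2567 TPM), and the part of that difference in these ratios was not tested. Without replicate 3 the log2 fold changes were 3.47 for S100A6, 2.23 for S100A4, 2.35 for S100A13, 1.53 for S100A14 and 1.41 for S100A10.

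The order of the S100 genes by level changed below the top. In control cells it was S100A10, S100A11, S100P, S100A13, S100A6 and S100A16, and no neighbours in this order overlapped. In shFAM111B cells it was S100A10, S100A11, S100A6, S100P, S100A13, S100A16 and S100A4, where S100P and S100A13 overlapped. S100A6 took 1.98% of the summed TPM of all 21 S100 genes in control and 9.15% in shFAM111B cells, and S100A13 took 2.58% and 5.62%. S100A10 took 61.3% and 63%, whereas S100A11 went from 21.7% to 13.9% and S100P from 11.2% to 7.13%. The summed level of all S100 genes was 1254, 1288 and 1276 TPM in control and 3288, 3243 and 3587 TPM in shFAM111B libraries.

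The other 12 S100 genes of the list were scarce. Only S100A3 was tested, at 0.6, 0.15 and 1.01 TPM in control and 1.68, 0.8 and 1.99 TPM in shFAM111B libraries. It was not called (log2 fold change 0.65), and it passed the filter mainly through the shFAM111B libraries, so no p-value is given for it. S100A2, an epithelial member, was at 0.39, 0 and 0.14 TPM and at 0.8, 1.89 and 4.07 TPM. S100A1, the member of heart muscle, was at 0.31, 0.18 and 0.35 TPM and at 1.23, 2.34 and 0.92 TPM. Both stood above the controls in every shFAM111B library at levels too low to be tested. S100A8, the calprotectin partner of S100A9, reached at most 0.49 TPM, S100Z reached 0.06 TPM in 1 library, and S100A5, S100A7, S100A7A, S100A7L2, S100A12, S100B and S100G were listed at 0 in all libraries.

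Some of these genes share ground with others. S100A3 lies within the limits of S100A4 on the same strand, and S100A1 overlaps S100A13 on the opposite strand, as does the transcript AL162258.1 on the same strand. The labels name a kit that keeps strand, the study's methods name a TruSeq kit without saying so, and whether the counting used strand is not given in the sources used here, so the small values of S100A3 and S100A1 are uncertain. The other genes that overlap S100A6, S100A11 and ANXA2 were at most 0.16, 0.06 and 1.07 TPM in any library. The near-identical copies ANXA2P1, ANXA2P2 and ANXA2P3 were at most 0.23 TPM, against 937.6 to 1013 TPM for ANXA2.

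Position was not itself used to choose the genes. Most S100 genes lie in a cluster here, however, so a choice by S100 symbol also favoured this region. Within 500 kb of the S100A6 start lay 70 genes, of which 25 were tested, and 6 of them were called higher and 0 lower. S100A6, S100A4, S100A14 and S100A13, members chosen on this contrast, made up 4 of these calls. Nothing about position is therefore read from the count over all 25. With the S100 members left out, 2 of 19 tested genes were called higher and 0 lower. Among all tested genes these shares were 6.77% and 23.7%. The 19 genes had a median of 0.23 on the log2 scale, against -0.36 for all tested genes. The fatty acid transporter gene SLC27A3, 238.1 kb from S100A6, rose from 3.90 ± 1.09 to 15.0 ± 5.64 TPM (log2 fold change 1.66, adjusted p = 0.00205, limma). The antisense gene AL358472.3 made up the other call, at 0.6 ± 0.681 and 2.81 ± 0.585 TPM. It passed the filter mainly through the shFAM111B libraries and lies within SLC39A1 on the opposite strand, so its value is uncertain, and with the trend of length and expression removed it was not called (log2 fold change 0.77). CHTOP, which encodes a chromatin protein and starts 97.7 kb from S100A6, just beyond S100A13, was at 73.4 ± 2.13 and 70.3 ± 6.74 TPM (log2 fold change -0.07, adjusted p = 0.449, limma), a value that was 0.38 after median-of-ratios scaling. ILF2, an RNA-binding protein gene, had a log2 fold change of 0.31 (adjusted p = 0.000784, limma) and was not called. S100A9, on the other side at -178.4 kb, was the only tested gene there. S100A10 and S100A11 lie on chromosome 1 outside this window.

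**Figure D2:**
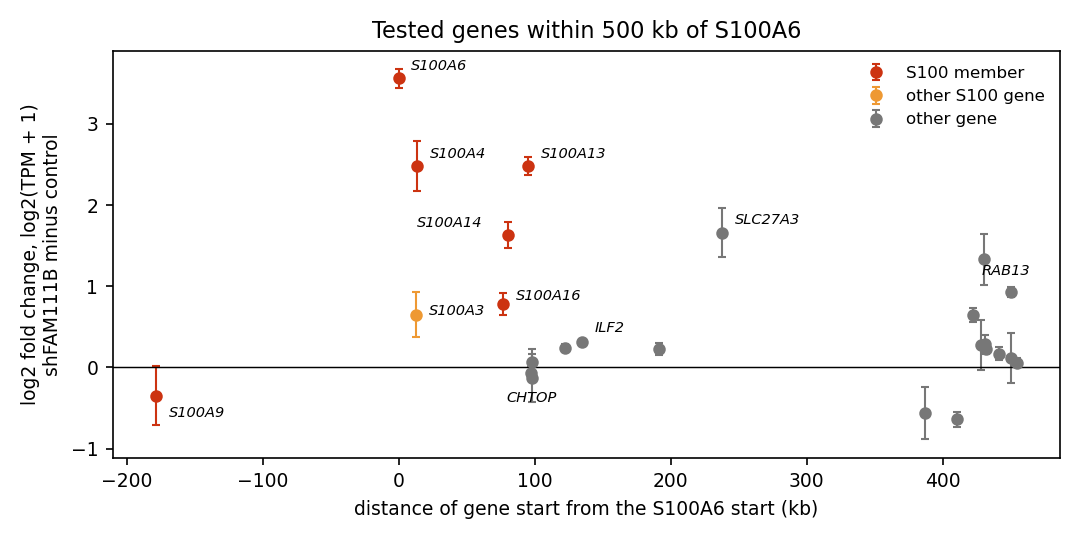
Log2 fold change with its standard error (shFAM111B minus control, log2(TPM + 1)) of the 25 tested genes within 500 kb of S100A6, by the distance of their start in kb. Among the S100 genes S100A6 stands at 3.56 and S100A9 at -0.35, and among the other genes SLC27A3 is the highest at 1.66.

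Fold changes differed with transcript length. The median log2 fold change of tested protein-coding genes was 0.68 for a longest transcript of up to 1000 nt, 0.17 from 1000 to 2000 nt, -0.34 from 2000 to 4000 nt, -0.79 from 4000 to 8000 nt and -0.95 above. The S100 genes are short. S100A11 (594 nt), S100A9 (577 nt), S100A6 (673 nt) and S100A4 (755 nt) fall in the shortest class, where 28.7% of protein-coding genes were called higher, and S100A10 (1202 nt), S100A14 (1218 nt), S100A16 (1146 nt) and S100P (1279 nt) in the next, where it was 11.3%. The members were chosen on this contrast, so their places among genes of like length are a description, and S100A14 and S100A4 passed the filter through the shFAM111B libraries. S100A6 and S100A4 lay above the 90th percentile of their class (1.83), as did S100A10 and S100A14 (1.05) and S100A13 (0.62). S100A11 at 0.76 lay close to the median of its class, and S100A9 at -0.35 below it. ANXA2 (3528 nt), S100A16 and S100P lay between the median and the 90th percentile of their classes. With the trend of length and expression removed, the log2 fold change was 2.63 for S100A6, 2.58 for S100A13, 2.01 for S100A4, 1.57 for S100A14, 1.18 for S100A10, 0.47 for S100A16, 0.39 for S100P, -0.07 for ANXA2, -0.21 for S100A11 and -0.81 for S100A9.

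**Figure D3:**
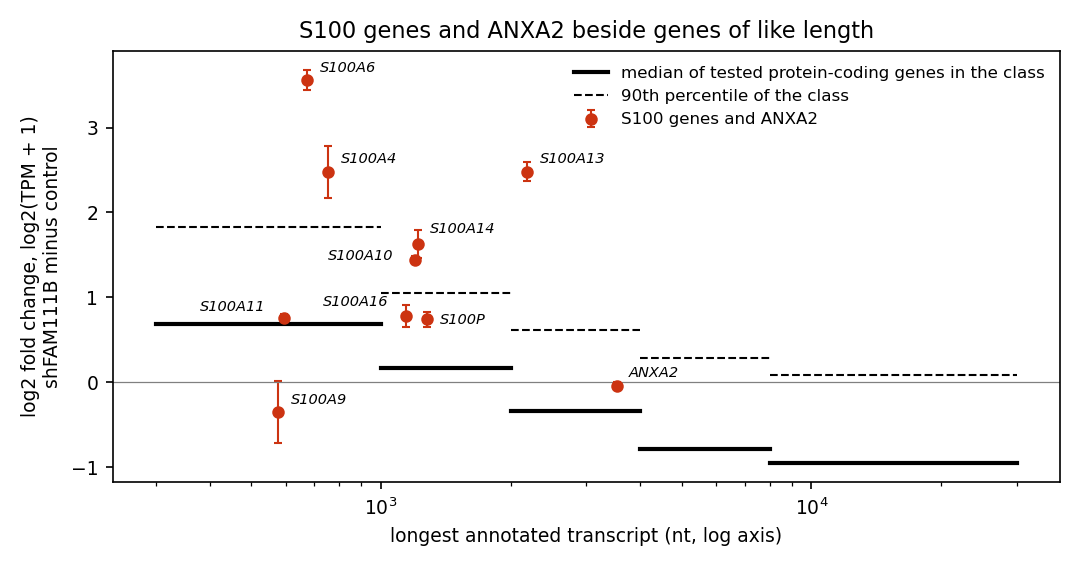
Log2 fold change with its standard error of the 10 genes by the length of their longest annotated transcript (log axis), with the median and the 90th percentile of tested protein-coding genes in 5 classes of length. S100A6, S100A4, S100A14, S100A10 and S100A13 lie above the dashed line of their class, and S100A11 lies close to its median.

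S100A10 and ANXA2 form their complex in equal parts, and their messages can be set against each other in each library. Within a library, the ratio of S100A10 to ANXA2 was 0.79, 0.811 and 0.791 in control and 2.19, 2.11 and 2.38 in shFAM111B libraries. The ratio went from 0.797 ± 0.0116 to 2.23 ± 0.14, a 2.8-fold difference that no scaling of whole libraries by a factor can change. Both genes were chosen with this contrast known, so the ratio is a description. ANXA2R, which encodes a receptor for the complex and was looked up after its values were seen, was at 0.22, 0.44 and 0.41 TPM in control and 4.39, 4.47 and 4.29 TPM in shFAM111B libraries. It passed the filter through the shFAM111B libraries alone, so no test is given.

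**Figure D4:**
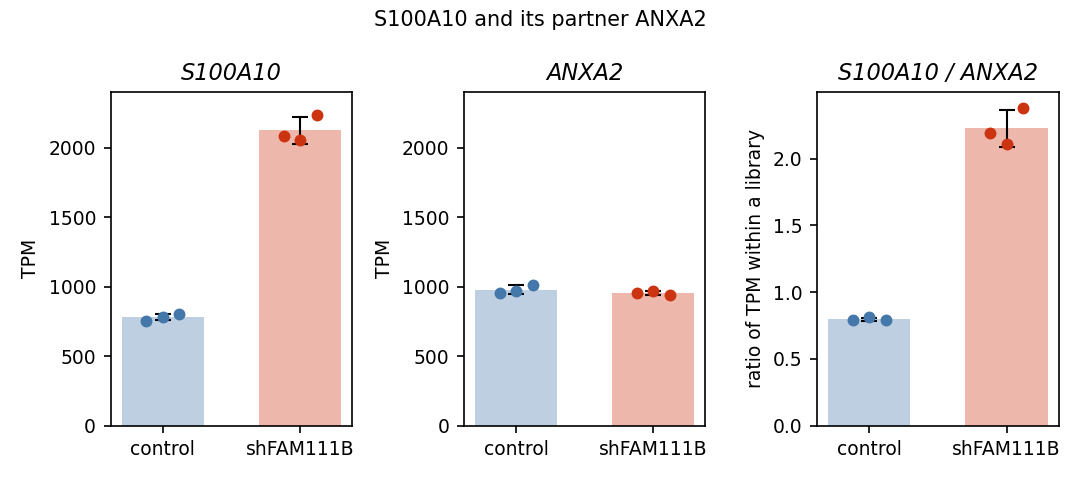
TPM of S100A10 and of ANXA2, and their ratio within a library, in 3 control and 3 shFAM111B libraries. Bars are means, error bars the SD and points the libraries. S100A10 is near 780.5 TPM in control and 2126 TPM in shFAM111B cells, ANXA2 stays between 937.6 and 1013 TPM in all 6 libraries, and the ratio goes from 0.797 to 2.23.

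Other partners gave ratios that can be set beside this one. S100A6 stood at 0.206 ± 0.0459 of the level of CACYBP, its partner in the ubiquitin pathway, in control cells and at 2.1 ± 0.206 in shFAM111B cells. S100P to EZR went from 1.4 ± 0.125 to 5.76 ± 0.632. S100A11 to ANXA1 was 20.1 ± 2.52 and 19.5 ± 2.2, with overlapping groups. These ratios hold S100 genes chosen on the same contrast and are a description only.

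A list of genes for proteins that S100 proteins bind was counted next. Of 13 listed, 11 were tested, and 7 were called lower and 0 higher, where 23.7% and 6.77% of all tested genes were. The median log2 fold change was -1.04, against -0.36 for all tested genes. PPFIBP1 (liprin-beta-1, bound by S100A4) fell from 21.5 ± 3.03 to 4.09 ± 0.245 TPM (log2 fold change -2.14, adjusted p = 7.81e-06, limma). MYH9, the heavy chain of non-muscle myosin IIA and a target of S100A4, fell from 191.8 ± 9.36 to 70.5 ± 7.43 TPM (log2 fold change -1.44, adjusted p = 8.97e-06, limma). EZR (ezrin, bound by S100P) fell from 102.4 ± 3.35 to 41.8 ± 1.88 TPM (log2 fold change -1.27, adjusted p = 3.78e-06, limma), and the scaffold gene IQGAP1 from 57.1 ± 4.88 to 24.3 ± 1.22 TPM (log2 fold change -1.20, adjusted p = 1.39e-05, limma). These are long transcripts, from 3096 nt for EZR to 7554 nt for MYH9, in classes whose median also lies below 0. After median-of-ratios scaling MYH9 (-0.98), EZR (-0.83) and IQGAP1 (-0.76) missed the 2-fold limit. Of that list, 2 of the 11 were called lower where 12.4% of all tested genes were, and the list's median was -0.60. With the length and expression trend removed, again 2 of the 11 were called lower where 9.11% of all tested genes were, the median was -0.42, and the same 3 genes missed the limit. Outside the naming rule, and chosen after their values were seen, HLTF and AHNAK fell too, with log2 fold changes of -2.79 and -1.04, which were -2.46 and -0.60 after median-of-ratios scaling.

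CACYBP was not among them. It was at 124.9 ± 15.1 and 147.1 ± 6.32 TPM (log2 fold change 0.24, adjusted p = 0.043, limma) and was not called. SUGT1, which S100A6 binds through the same kind of domain, had a log2 fold change of 0.43 and was not called either, but with the length and expression trend removed it was 1.17 and called higher. The cargo genes of S100A13, FGF1 and IL1A, were at most 0.11 and 0.1 TPM in any library.

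Few of the other annexins were called. Of 12 listed, 9 were tested, 0 were called higher and 1 lower, where 6.77% and 23.7% of all tested genes were. The median log2 fold change was 0.51, against -0.36 for all tested genes. All shFAM111B libraries lay above all controls in 6 of the 9, against 22.5% of all tested genes, and below them in 2, against 52.8%. After median-of-ratios scaling 4 were called higher and 0 lower, where 14% and 12.4% of all tested genes were. The call was ANXA7, an annexin of secretory granules, which went from 81.1 ± 2.3 to 37.1 ± 2.55 TPM (log2 fold change -1.11, adjusted p = 8.72e-06, limma), a call that was lost under median-of-ratios (-0.66), upper-quartile (-0.70) and quantile (-0.87) scaling and with the length trend removed (-0.88). ANXA1, the partner of S100A11, was at 13.9 ± 1.46 and 24.4 ± 3.43 TPM (log2 fold change 0.76, adjusted p = 0.001, limma) and did not reach 2-fold. It passed 2-fold under median-of-ratios (1.19), upper-quartile (1.15) and quantile (1.24) scaling. ANXA5 had a log2 fold change of -0.31 without further scaling and 0.15 after median-of-ratios scaling.

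Among receptors for released S100 proteins, 5 of 7 were tested. Of these, 2 were called lower and 0 higher, where 23.7% and 6.77% of all tested genes were. The median was -0.39, and 0.21 with the length trend removed. The adhesion molecule gene ALCAM fell from 51.8 ± 3.36 to 14.9 ± 0.529 TPM (log2 fold change -1.73, adjusted p = 3.15e-06, limma) and NPTN (neuroplastin) from 152.2 ± 8 to 63.3 ± 6.25 TPM (log2 fold change -1.26, adjusted p = 1.27e-05, limma), which became -0.81 and was not called after median-of-ratios scaling. BSG (basigin), the most abundant of them, was at 572 ± 24.1 and 718.2 ± 24.9 TPM (log2 fold change 0.33), and at -0.08 after quantile normalization. AGER, the gene of RAGE, was at 2.99 ± 0.35 and 4.2 ± 1.33 TPM with overlapping groups (adjusted p = 0.172, limma). The lipopolysaccharide receptor gene TLR4 was at most 0.1 TPM.

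The plasminogen system, which the S100A10 and annexin A2 complex assists at the cell surface, had 6 of 8 genes tested, with 1 called higher and 1 lower (6.77% and 23.7% of all tested genes) and a median of -0.20 (0.20 after median-of-ratios scaling). PLAU (urokinase), below the level set for naming genes and chosen after its values were seen, rose from 3.19 ± 0.386 to 9.64 ± 2.06 TPM (log2 fold change 1.33, adjusted p = 0.000267, limma). PLG, the gene of plasminogen itself, was at 39.0 ± 1.73 and 50.3 ± 6.37 TPM and was not called (log2 fold change 0.35).

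Other calcium sensors with EF-hands lay on both sides of 0. All 18 listed were tested, and 1 was called higher and 3 lower, where 6.77% and 23.7% of all tested genes were, with a median log2 fold change of -0.08 that became 0.35 after median-of-ratios scaling. GCA (grancalcin) fell from 23.4 ± 1.7 to 7.07 ± 0.717 TPM (log2 fold change -1.59, adjusted p = 1.06e-05, limma). CALU and RCN1, calcium binders of the secretory pathway, fell by 1.09 and 1.02 on the log2 scale (adjusted p = 4.11e-06 and 7.86e-06, limma). Both calls were lost after median-of-ratios scaling (-0.64 and -0.57), and that of RCN1 also without control replicate 3 (-0.98) or shFAM111B replicate 2 (-0.99). The centrosome gene CETN3 rose from 21.9 ± 5.39 to 47.9 ± 6.42 TPM (log2 fold change 1.11, adjusted p = 0.000903, limma), a call lost with TPM taken over protein-coding genes off the mitochondrial chromosome (0.99). The calmodulin genes CALM2 and CALM3 had log2 fold changes of -0.34 and -0.05, which were 0.12 and 0.40 after median-of-ratios scaling. No test of the difference between the S100 genes and this list was made, since the S100 genes were chosen on the same contrast.

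The genes whose values over the 6 libraries were nearest to those of S100A6 were sought among tested genes with at least 10 TPM in the higher group. Nearness was the Euclidean distance of log2(TPM + 1) after the control mean was taken away. They were FABP3, a fatty acid carrier (distance 0.312, log2 fold change 3.65), AC027644.3 (0.317, 3.47), LGALS2, a galectin (0.482, 3.32), AC005832.4 (0.491), which was listed at 0 in all control libraries, and AC009133.6 (0.564). LGALS2 was at 9.57 ± 0.167 TPM in control and 104.8 ± 12.2 TPM in shFAM111B cells, and FABP3 at 1.04 ± 0.391 and 24.5 ± 2.54 TPM. AC009133.6 was at 0.12, 0 and 0.06 TPM in control libraries, so it and AC005832.4 passed the filter through the shFAM111B libraries alone. None of the 5 is an S100 gene, and the likeness is over 6 libraries only. The distance follows mainly the size of the difference, for which S100A6 was picked. S100A4 and S100A13, the next S100 members, had log2 fold changes of only 2.48, so nothing is read from their absence.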

How the data were processed

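Huh7 libraries of control and shFAM111B cells (3 each) were used. The authors deposited TPM for each library, with group means and their own fold changes, log2 fold changes, p-values and adjusted p-values, none of which were used. The submitters' processing notes name RSEM, DESeq2 and hg38. The aligner and the versions are not given in the sources used here. Read depth is unknown, and summed TPM were 978634 to 997094 per library.

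The filter asked for 3 or more libraries with 1 TPM or more (14394 genes). A test on counts was foreseen where counts were held, and limma-trend on log2(TPM + 1) was used, since the values are TPM (limma 3.58.1, R 4.3.3, Benjamini-Hochberg adjustment over all tested genes, no covariates). The members and lists were chosen with earlier results of these data known. Positions and lengths are from GENCODE v29 (GRCh38), matched for 58420 genes (96.3%), and promoters from RefSeq. Named genes are the members, FAM111B, the tested S100 genes, from each list up to 4 called genes of largest change whose mean reached 10 TPM, leading markers, the 5 profiles nearest to S100A6 and the called genes near it. Within groups, libraries correlated at 0.969 to 0.984, and at most 0.889% of tested genes had equal TPM in any pair. Tables and figures were made in Python 3.11.15 with pandas 2.3.3, numpy 2.4.6 and matplotlib 3.10.9. Alternatives were other filters, pseudocounts and scalings, a replicate block, each library left out and removal of the trend with length and expression (loess, span 0.75). The results of 3 listed genes are left out of the text, and those genes stay in the counts.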

Additional observations from a re-analysis of the deposited data

How the results depend on the processing

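Of the summary counts recomputed under the alternatives, 242 were equal to the value reported or within 1.5 times of it, and 44 were not. The 242 include counts that were 0 and stayed 0, which say little about stability. For single genes 270 values held, 32 moved and 25 fell short of the call. No called value changed sign, but among values not called S100A11 went from 0.76 to -0.21 with the length trend removed, ANXA2 from -0.04 to 0.42 and 0.38 under median-of-ratios and upper-quartile scaling, and S100A9 from -0.35 to 0.03 without shFAM111B replicate 2. The scalings raised the median tested gene from -0.36 to 0.03 (median-of-ratios), -0.01 (upper-quartile) and -0.03 (quantile), which took the share of calls that were higher from 22.2% to 52.9%, 49.7% and 47.5%. Median-of-ratios gave 2016 genes called higher and 1792 lower, 8 members higher, other annexins 4 higher and 0 lower, binding partners 2 lower, receptors 1 lower, EF-hand genes 3 higher and 1 lower, and 4 genes near S100A6 higher. Upper-quartile gave 1884 and 1905, 8 members, annexins 3 and 0, partners 3 lower, receptors 1 lower, EF-hand genes 3 and 1, and 4 near S100A6. Quantile normalization gave 1673 and 1846, annexins 2 and 0, partners 4 lower, plasminogen genes 2 lower, EF-hand genes 2 higher, and 4 near S100A6. With TPM recomputed over protein-coding genes off the mitochondrial chromosome, 506 genes were called higher (11.7% of calls), with 2 plasminogen genes lower, 0 EF-hand genes higher and 1 gene near S100A6. With the length and expression trend removed, 1300 genes were called lower (51.1% of calls higher), annexins 1 higher and 0 lower, partners 1 higher and 2 lower, EF-hand genes 2 higher and 1 lower, and 4 near S100A6 higher. With at least 1 TPM in every library, 634 genes, 3 members and 1 gene near S100A6 were called higher, since S100A4, S100A9 and S100A14 then left the test. With no filter, 1 other S100 gene was called, in a fit whose variances were more often 0 than not. The causes were not tested beyond what these settings change by construction.

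With a replicate block, 983 genes were called higher and 3402 lower. Libraries of the same number correlated at 0.054, 0.0349 and 0.0908 in their deviations, so the numbers were not taken to pair them, and the block is given here only. Each library left out in turn gave 904 to 1073 genes called higher, 3360 to 3545 lower, and 5 members higher throughout. TPM hold no depth, so precision at levels near 1 TPM (S100A9, S100A14, S100A3) rests on the spread between libraries. In limma that spread is taken over both groups and drawn toward a trend over all tested genes.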
